A study of Mus musculus with 10 samples.

Results

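The transforming growth factor beta (TGF-beta) genes described here are the ligands Tgfb1, Tgfb2 and Tgfb3, the receptors Tgfbr1, Tgfbr2 and Tgfbr3, and the latency proteins Ltbp1, Ltbp2, Ltbp3 and Ltbp4. They were taken from the table by gene name and make up 10 of the 54532 genes measured. RNA of whole lungs was sequenced in bulk from 5 mice with increased pulmonary blood flow (IncPBF) and 5 sham mice, all wild type (WT) according to the labels and C57/BL6 pups of either sex according to the methods. In the IncPBF group a fistula between the abdominal aorta and the inferior vena cava was made by needle puncture at postnatal day 7 (P7). The sham group underwent the laparotomy without the puncture, so both groups shared anesthesia and opening of the abdomen. All lungs were collected at P14, while alveoli are still forming. A single time point was sequenced, no flow measurement is tied to a lung in the labels, and the sex of each mouse is not labelled.

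TGF-beta is secreted as an inactive dimer. Its propeptide keeps the ligand latent and is bound by a latent TGF-beta binding protein (LTBP), which tethers the complex to fibrillin microfibrils until integrins, proteases or thrombospondin release the ligand. The free ligand joins the receptors TGFBR2 and TGFBR1, which phosphorylate the transcription factors SMAD2 and SMAD3, and TGFBR3 (betaglycan) is a co-receptor that presents above all the TGF-beta2 ligand. In the growing lung the pathway is known for its part in myofibroblast differentiation, septum formation and elastic fibre assembly, and excess activity is known to stunt alveoli.

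The members lie on 8 chromosomes. Tgfb1 and Ltbp4 are both on chromosome 7 and Tgfb3 and Ltbp2 both on chromosome 12. RefSeq promoter windows (GRCm38.p6, 250 bases before to 50 after a start site) were at hand for 8 members, with 12 windows in all, and not for Tgfb3 and Tgfbr3. The sequences up to the gene starts are shown for Tgfb2, the member with the smallest p, for Tgfb1, the ligand that did not pass the test, and for Ltbp2, the latency protein that rose. They are written 5′ to 3′ on the strand of the gene. Capitals mark a TATA box (TATAAA), an E-box (CACGTG), a short cyclic AMP motif (CGTCA, also contained in the full element TGACGTCA) and a Smad-type motif (CAGACA), all searched on both strands together with a TEAD motif (CATTCC).
Tgfb1, chr7:25686752-25687001, plus strand: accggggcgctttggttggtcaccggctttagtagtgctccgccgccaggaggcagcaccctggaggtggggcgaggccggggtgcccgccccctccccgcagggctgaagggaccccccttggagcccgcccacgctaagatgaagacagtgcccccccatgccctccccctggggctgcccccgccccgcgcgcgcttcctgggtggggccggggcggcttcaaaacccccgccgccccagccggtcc
Tgfb2, chr1:186705990-186706239, minus strand: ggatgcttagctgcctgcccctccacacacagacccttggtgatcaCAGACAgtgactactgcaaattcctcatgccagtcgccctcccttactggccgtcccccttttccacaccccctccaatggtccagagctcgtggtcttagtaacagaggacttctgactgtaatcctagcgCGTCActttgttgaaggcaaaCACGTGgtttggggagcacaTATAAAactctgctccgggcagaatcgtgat
Ltbp2, chr12:84876533-84876741, minus strand: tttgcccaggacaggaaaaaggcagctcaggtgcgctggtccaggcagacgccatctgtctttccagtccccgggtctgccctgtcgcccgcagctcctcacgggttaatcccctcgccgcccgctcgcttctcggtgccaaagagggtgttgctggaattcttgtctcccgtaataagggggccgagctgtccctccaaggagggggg

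The stretch before Tgfb2 held TATAAA at -31, CACGTG at -51, CGTCA at -72 and CAGACA at -204 relative to the start site, and had 53.6% G and C with 8 CG pairs. The stretch before Tgfb1 had 75.2% G and C with 21 CG pairs and held none of the searched letters. The 209 bases before Ltbp2 also held none of them, with 63.2% G and C and 13 CG pairs. Over the 32851 windows of the RefSeq table TATAAA was found in 13.6%, CACGTG in 7.15%, CGTCA in 20.8%, CATTCC in 14.7% and TGACGTCA in 1.79%, and CAGACA was found in 6913 windows. Among the members TGACGTCA was found in Ltbp1, at -73. A match describes letters in a window and not the binding of a factor.

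Levels are given as FPKM, fragments scaled by gene length and by a depth of the lung, so that genes may be compared with each other. The depth behind the deposited values was not the fragment total on genes. It was 1.02 to 1.07 times that total in IncPBF lungs and 0.958 to 1.03 times in sham lungs. Between 16103423 and 20318525 fragments per lung fell on genes, and the fewest fragments behind any value of a member were 962. The test across genes was limma with Benjamini-Hochberg adjustment on log2(FPKM + 0.1), over the 15388 genes with a mean of at least 0.5 FPKM. All 10 members passed this filter. Of all genes tested 32.3% passed an adjusted p of 0.05, and 49.9% of these were higher in IncPBF. With an equal fragment total per lung, 5343 genes passed and 66.6% of them were higher, after a shift of the median gene by 0.078 on the log2 scale. Xist, the RNA made from the inactive X chromosome of female cells, was at 52.4 to 66.5 FPKM in IncPBF lungs 2 to 5, at 0.0144 FPKM in IncPBF lung 1 and at 0.00640 to 0.0770 FPKM in sham. The IncPBF group thus held Xist-expressing lungs and the sham group held none, and apart from IncPBF lung 1 this difference and the surgery cannot be told apart. Each member is therefore also given for IncPBF lung 1 against the sham lungs. Labels do not say whether the lungs of a group came from separate litters or operation days, and p-values measure the spread between these lungs.

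IncPBF lungs had more Tgfb2 and Tgfb3, less of every receptor in the mean, more Ltbp2 and less Ltbp4 than sham lungs. In the limma test 7 of 10 members passed, beside 32.3% of all genes tested. Higher in IncPBF were 3 members (Tgfb2, Tgfb3 and Ltbp2), beside 16.1% of all genes. Lower were 4 members (Tgfbr1, Tgfbr2, Tgfbr3 and Ltbp4), beside 16.2%. The groups did not overlap for 5 members, beside 23.2% of genes. Tgfb1, Ltbp1 and Ltbp3 did not pass. The median absolute log2 fold change was 0.41 over the members and 0.20 over all genes tested, and the signed median was -0.19 over the members and 0.01 over all genes. These are counts and medians of a chosen list and carry no test of the list.

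**Figure D1:**
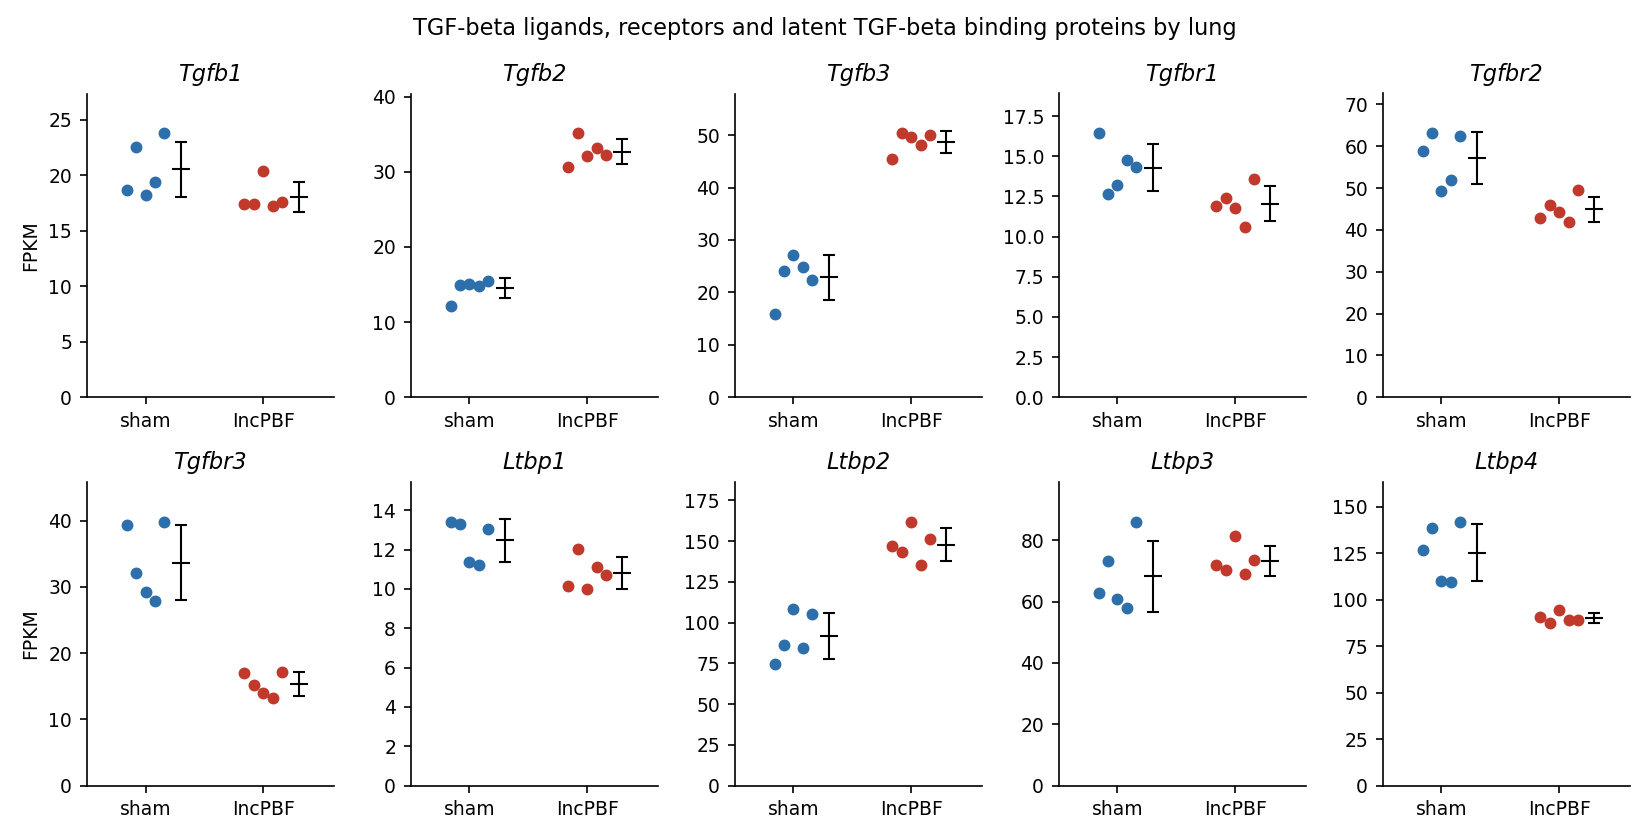
FPKM (vertical axes, starting at 0) of each of the 10 members in each lung, with 5 sham and 5 IncPBF points per panel and the mean and SD beside them. The groups of Tgfb2, Tgfb3, Tgfbr3, Ltbp2 and Ltbp4 do not overlap, and those of the other members do.

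Among the ligands, Tgfb2 and Tgfb3 were about doubled and Tgfb1 was not. Tgfb2 (chr1:186622792-186705989 on GRCm38, minus strand), a ligand needed for heart and lung development, was measured at 12.1, 14.9, 15.0, 14.9 and 15.5 FPKM in sham lungs 1 to 5 and at 30.6, 35.2, 32.1, 33.2 and 32.3 FPKM in IncPBF lungs 1 to 5. Every IncPBF lung stood clear of every sham lung, and the lowest sham value was that of lung 1. Tgfb2 rose 2.25-fold (log2 fold change 1.17, 95% interval 1.02 to 1.32, SE 0.07, limma adjusted p = 3.1e-06), the 13th smallest p among the 15388 genes. An absolute log2 fold change above that of Tgfb2 was found for 2.76% of genes.

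Tgfb3 (chr12:86056745-86079041, minus strand), a ligand known for palate fusion and lung morphogenesis, was at 15.8, 24.1, 27.2, 24.9 and 22.3 FPKM in the sham lungs. Its values in the IncPBF lungs were 45.4, 50.4, 49.7, 48.1 and 50.1 FPKM. Again no lung of one group reached the other, with sham lung 1 lowest. Tgfb3 rose 2.16-fold (95% interval 1.80 to 2.60, log2 fold change 1.11, SE 0.12, limma adjusted p = 9e-05).

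Tgfb1 (chr7:25687002-25705077, plus strand), the ligand most often linked to fibrosis and made by many cell types including leukocytes and platelets, was at 18.7, 22.6, 18.3, 19.4 and 23.8 FPKM in the sham lungs and at 17.4, 17.4, 20.4, 17.3 and 17.6 FPKM in the IncPBF lungs. The groups overlapped through IncPBF lung 3, which was above 3 sham lungs. The log2 fold change was -0.18 (95% interval -0.37 to 0.00, limma adjusted p = 0.12), so the call was not made and a fall to 0.776 times the sham level stays within the interval. In IncPBF the ligands had the order Tgfb3, Tgfb2, Tgfb1 in all 5 lungs. In sham Tgfb2 was the lowest in all 5 lungs, whereas Tgfb3 and Tgfb1 (22.9 ± 4.30 and 20.5 ± 2.49 FPKM, SD, n = 5) overlapped.

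The signaling receptors were lower by a smaller margin than the co-receptor. Tgfbr3 (chr5:107106570-107289629, minus strand), betaglycan, was at 39.3, 32.0, 29.2, 27.8 and 39.9 FPKM in the sham lungs and at 17.1, 15.2, 13.97, 13.2 and 17.2 FPKM in the IncPBF lungs. The highest IncPBF lung was well under the lowest sham lung. Tgfbr3 fell to 0.460 times the sham level (95% interval 0.385 to 0.549, log2 fold change -1.12, SE 0.12, limma adjusted p = 6.8e-05).

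Tgfbr2 (chr9:116084293-116175360, minus strand), the receptor that first binds the ligand, was at 58.9, 63.1, 49.3, 51.9 and 62.4 FPKM in the sham lungs and at 42.8, 46.0, 44.2, 41.9 and 49.6 FPKM in the IncPBF lungs. The groups overlapped by a single pair, IncPBF lung 5 lying just above sham lung 3. Tgfbr2 fell to 0.789 times sham (95% interval 0.699 to 0.890, log2 fold change -0.34, SE 0.08, limma adjusted p = 0.0074).

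Tgfbr1 (chr4:47353222-47414931, plus strand), the kinase that phosphorylates SMAD2 and SMAD3, was the least abundant receptor in all 10 lungs, at 16.4, 12.6, 13.2, 14.8 and 14.4 FPKM in sham and 11.9, 12.4, 11.8, 10.6 and 13.6 FPKM in IncPBF. IncPBF lung 5 was higher than sham lungs 2 and 3. Its log2 fold change was -0.24 (95% interval -0.43 to -0.06, limma adjusted p = 0.043), with 42.7% of genes further from 0. This call was lost with an equal total per lung (adjusted p = 0.13), and held in 8 of 22 alternative settings. It held without IncPBF lung 5 (limma adjusted p = 0.026), sham lung 2 (0.028) or sham lung 3 (0.037), and was lost without any one of the other lungs, with adjusted p from 0.064 to 0.10. Tgfbr2 exceeded Tgfbr1 by 3.51 to 4.99 times in sham and by 3.59 to 3.97 times in IncPBF, so these ratios overlapped.

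**Figure D2:**
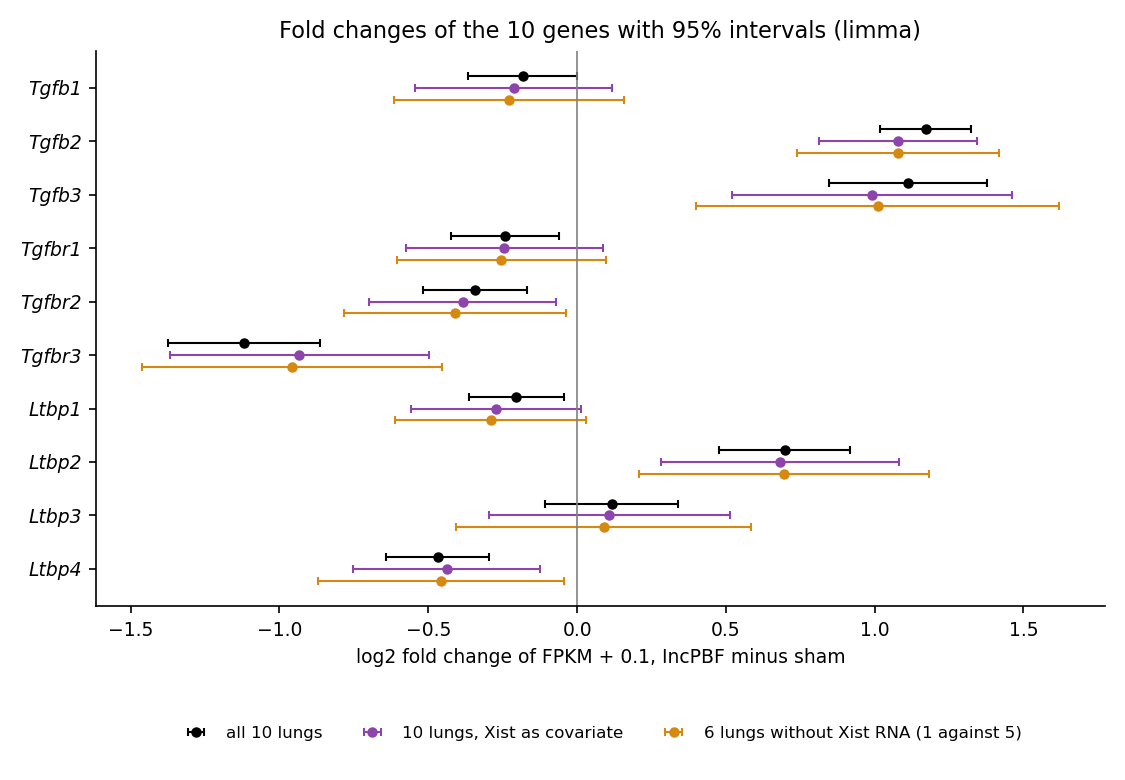
Log2 fold change of each member, IncPBF against sham (horizontal axis), with 95% intervals, from all 10 lungs, from 10 lungs with Xist as a covariate and from the 6 lungs without Xist. Tgfb2 at 1.17 and Tgfbr3 at -1.12 mark the ends with all lungs, and all 10 members keep their sign in the other fits.

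Among the latency proteins, Ltbp2 and Ltbp4 went opposite ways. Ltbp2 (chr12:84783212-84876532, minus strand), a microfibril protein that does not bind latent TGF-beta itself but shares the fold of its family, was at 74.9, 86.6, 108, 84.3 and 105 FPKM in the sham lungs and at 147, 143, 162, 135 and 152 FPKM in the IncPBF lungs. All IncPBF lungs were above all sham lungs. Ltbp2 rose 1.62-fold (95% interval 1.39 to 1.89, log2 fold change 0.70, SE 0.10, limma adjusted p = 0.0005).

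Ltbp4 (chr7:27305136-27337692, minus strand), which is needed for elastic fibre assembly and normal alveoli in mice, was at 126, 138, 110.2, 109 and 142 FPKM in the sham lungs and at 90.7, 87.6, 94.2, 88.9 and 88.9 FPKM in the IncPBF lungs. The IncPBF lungs lay close together and below each sham lung. Ltbp4 fell to 0.723 times sham (95% interval 0.642 to 0.815, log2 fold change -0.47, SE 0.08, limma adjusted p = 0.0013).

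Ltbp1 (chr17:75005568-75392512, plus strand), the founding member of the family, was at 13.4, 13.3, 11.4, 11.2 and 13.1 FPKM in sham and at 10.2, 12.0, 9.99, 11.1 and 10.7 FPKM in IncPBF. IncPBF lung 2 was above sham lungs 3 and 4. The log2 fold change of -0.20 (95% interval -0.36 to -0.04) narrowly missed the threshold (limma adjusted p = 0.052), and it passed in 5 of 22 alternative settings, among them those without IncPBF lung 2 (limma adjusted p = 0.032), sham lung 3 (0.033) or sham lung 4 (0.030). Ltbp3 (chr19:5740904-5758532, plus strand), which is known from bone and tooth growth, was at 62.7, 73.2, 60.9, 58.0 and 86.0 FPKM in sham and at 71.8, 70.4, 81.4, 68.8 and 73.7 FPKM in IncPBF. The sham lungs spanned the whole range of the IncPBF lungs, and the log2 fold change was 0.12 (95% interval -0.11 to 0.34, limma adjusted p = 0.42). The interval leaves room for a rise of up to 1.26-fold. The log2 fold change was 0.06 without sham lung 4 and 0.20 without sham lung 5, which was the highest. Exons of Ltbp2 share 764 bases with D030025P21Rik on the opposite strand, a gene of at most 47 fragments per lung, and the strand setting of the counting is not given in the sources used here.

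**Figure D3:**
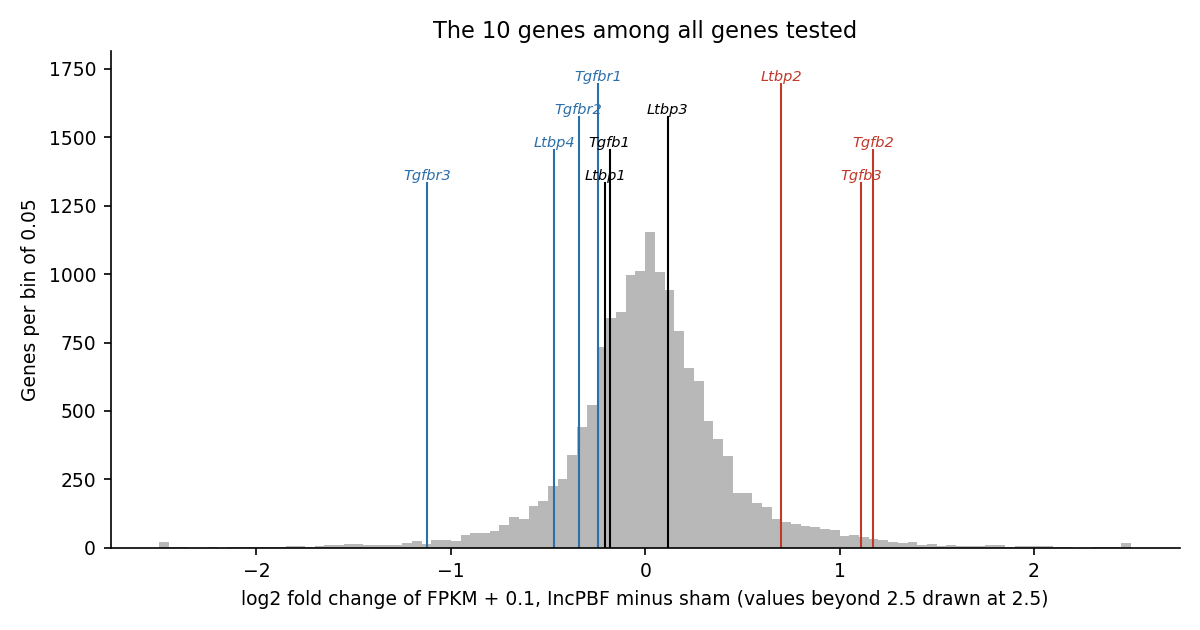
Distribution of the log2 fold changes of the 15388 genes tested (horizontal axis log2 fold change, vertical axis number of genes), with the members marked by lines (red higher, blue lower, black not passed, line height without meaning). Tgfb2, Tgfb3 and Tgfbr3 lie in the tails, where 2.76%, 3.22% and 3.15% of genes are further from 0, and Ltbp3 and Tgfb1 lie near the middle.

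IncPBF lung 1, the lung of its group without Xist, lay outside the sham range for 9 of the 10 members. It lay on the side of the group difference for all 7 members that passed with all lungs. This lung is itself part of the fit with all lungs. For the 5 members whose groups do not overlap, its place outside the sham range follows from that. The share of all genes for which it lay outside the sham range was not counted, so these counts carry no test. Fitting it alone against the 5 sham lungs assumes that this single lung varies as the sham lungs do. In that fit Tgfb2 kept a log2 fold change of 1.08 and was the 1 member to pass (limma adjusted p = 0.028), as did 1.04% of genes. Tgfb3 was at 1.01 (adjusted p = 0.13), Tgfbr3 at -0.96 (adjusted p = 0.097), Ltbp2 at 0.70 (adjusted p = 0.17) and Ltbp4 at -0.46 (adjusted p = 0.26). Tgfbr2 was at -0.41 (adjusted p = 0.26) and Tgfbr1 at -0.25 (adjusted p = 0.44). Of the members that had not passed with all lungs, Tgfb1 was at -0.23 (adjusted p = 0.53), Ltbp1 at -0.29 (adjusted p = 0.34) and Ltbp3 at 0.09 (adjusted p = 0.86). With log2 Xist as a covariate over all 10 lungs, 4.82% of genes and 3 members passed. These were Tgfb2 at 1.08 (limma adjusted p = 0.002), Tgfb3 at 0.99 (adjusted p = 0.029) and Tgfbr3 at -0.93 (adjusted p = 0.028). All 10 members had the same sign in these fits as in the fit without the covariate.

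Summed by role, ligand RNA was higher and receptor RNA lower in every IncPBF lung than in every sham lung. The ligand sum was 99.4 ± 3.78 FPKM in IncPBF and 57.9 ± 6.36 FPKM in sham (SD, n = 5 each). The receptor sum was 72.3 ± 5.40 FPKM in IncPBF and 105 ± 11.4 FPKM in sham. The ratio of ligand to receptor FPKM was 1.24 to 1.501 with the fistula and 0.407 to 0.660 without it. The LTBP sum did not separate the groups, at 304 to 348 FPKM in IncPBF and 263 to 346 FPKM in sham.

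The share of each gene in its role's sum does not depend on how a lung is scaled, although shares within a role add up to a whole and move against each other. Over the 10 shares the exact two-sided permutation test over all assignments of the lungs was used without adjustment, and 0.00794 is the smallest p it can give. Tgfb3 made up 49.0% ± 0.640 of ligand FPKM in IncPBF and 39.3% ± 4.42 in sham (SD, n = 5 each), and Tgfb2 32.9% and 25.1%. Tgfb1 went from 35.7% ± 4.10 in sham to 18.1% ± 1.22 in IncPBF, the widest move of the 10. Each of these ligand shares separated the groups (exact permutation p = 0.00794).

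Receptor shares separated the groups as well, with the same p. Tgfbr3 fell from 31.9% ± 2.34 to 21.2% ± 1.56, while Tgfbr2 went from 54.4% to 62.2% and Tgfbr1 from 13.7% to 16.6%, although both had lower levels. Ltbp2 rose from 30.9% ± 4.09 to 45.9% ± 0.873 of the LTBP sum and Ltbp4 fell from 42.1% ± 3.03 to 28.0% ± 0.835 (exact permutation p = 0.00794 for both). The order of these genes was thereby exchanged: Ltbp4 was the most abundant LTBP in all 5 sham lungs and Ltbp2 in all 5 IncPBF lungs. In sham lung 3 the pair was nearly level. Ltbp3 was at 22.8% ± 1.48 in sham and 22.7% ± 0.401 in IncPBF (exact permutation p = 0.937), and Ltbp1 went from 4.21% to 3.37% with overlap (exact permutation p = 0.0159).

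**Figure D4:**
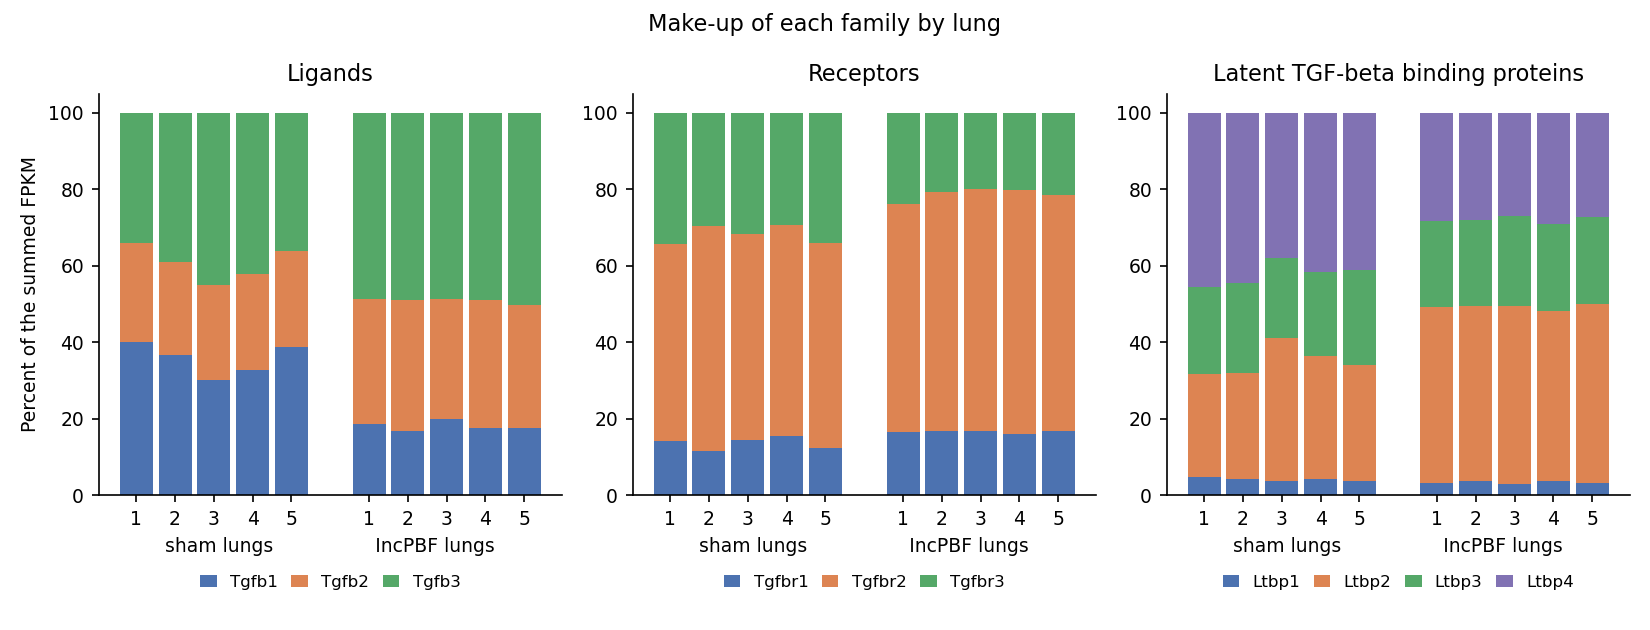
Percent of the summed FPKM of the ligands, receptors and latency proteins taken by each gene in each lung, drawn as stacked bars from 0 to 100 percent for 5 sham and 5 IncPBF lungs. Tgfb1 has a share of 35.7% in the sham mean and 18.1% in the IncPBF mean, and Ltbp2 of 30.9% and 45.9%.

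The rest of the pathway was read from 6 lists of 69 genes, 67 of them tested. In the limma test 39 passed (58.2%, beside 32.3% of all genes), 25 higher and 14 lower in IncPBF. The counts of each list are to be read beside the 16.1% of all genes that were higher and the 16.2% that were lower. Of the 13 tested activators, which free the ligand, 6 rose and 2 fell, with a median log2 fold change of 0.21 beside 0.01 over all genes. Thbs1, thrombospondin 1, which activates latent TGF-beta, rose from 38.7 ± 3.55 to 93.9 ± 17.7 FPKM (SD, n = 5 each, log2 fold change 1.26, limma adjusted p = 6e-05). IncPBF lung 1 had the lowest level of its group, 66.1 FPKM. The log2 fold change of Thbs1 was 0.78 with that lung alone against sham (limma adjusted p = 0.056) and 0.77 with Xist as a covariate (adjusted p = 0.013). On the log2 scale Mmp14, a membrane-bound matrix protease, rose by 0.53, and Itgav, the integrin alpha chain shared by the activating integrins, rose by 0.21 (limma adjusted p = 0.014). Its partner Itgb5 fell by 0.34, as did Furin, the convertase that cleaves the propeptide, by 0.29, a call lost without IncPBF lung 1, 2 or 4 or sham lung 2 (limma adjusted p of 0.060 to 0.066). Itgb6, the epithelial partner, was at 10.7 ± 0.472 FPKM in sham and 11.2 ± 1.29 FPKM in IncPBF (limma adjusted p = 0.59). Itgb8 was under the filter, at 0.202 to 0.389 FPKM in sham and 0.607 to 0.820 FPKM in IncPBF, without overlap.

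Of the 8 anchors of the latent complex 3 rose and 3 fell. Fbn2, a fibrillin made mainly before birth, rose from 1.75 ± 0.286 to 5.42 ± 0.320 FPKM (SD, n = 5 each, log2 fold change 1.59, limma adjusted p = 6.7e-06), whereas Fbn1, the main fibrillin, went from 53.6 to 61.0 FPKM without passing (limma adjusted p = 0.057, 0.026 to 0.12 with single lungs left out). Emilin1, which binds the TGF-beta propeptide outside the cell, rose by 0.38 on the log2 scale. Adamtsl2, a microfibril protein that interacts with LTBP1, fell from 55.1 ± 7.12 to 18.4 ± 1.97 FPKM (log2 fold change -1.57, limma adjusted p = 3.7e-06), and Lrrc32, which holds latent TGF-beta on the cell surface, fell by 0.60. Of the 10 co-receptors and extracellular inhibitors 3 rose and 1 fell, in all near the 32.3% of all genes that passed. Htra1, a secreted protease reported to cleave TGF-beta family proteins, rose from 26.7 ± 4.08 to 74.1 ± 4.38 FPKM (log2 fold change 1.48, limma adjusted p = 5.2e-06). Cd109, a co-receptor that restrains signaling, rose from 0.660 to 1.03 FPKM (log2 fold change 0.58, and 0.29 with a pseudocount of 1), and Eng, the endothelial co-receptor endoglin, fell by 0.25 on the log2 scale, a call lost without IncPBF lung 2 (limma adjusted p = 0.053) or with an equal total per lung (0.074).

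Inside the cell, of 9 Smad transducers tested 2 rose and 2 fell, beside 16.1% and 16.2% of all genes, with a median of -0.02. Smad3 rose from 11.7 ± 0.573 to 15.8 ± 1.73 FPKM (SD, n = 5 each, log2 fold change 0.43, limma adjusted p = 0.0013) and Smad2 rose by 0.18 on the log2 scale (adjusted p = 0.046). Smad4, the partner of both, fell by 0.21 (limma adjusted p = 0.027), and Ep300, a coactivator, fell by 0.39. On the same scale, of 9 Smad inhibitors 2 rose (Skil by 0.29 and Tgif2 by 0.40, or 0.24 with a pseudocount of 1) and 3 fell, with a median of -0.07. Smad7, the inhibitory Smad that TGF-beta itself induces, fell by 0.29 (limma adjusted p = 0.021), the ubiquitin ligase Smurf2 by 0.37 and the Smad phosphatase Ppm1a by 0.28. Of the 22 alternative settings Smad2 passed in 9, Tgif2 in 10, Smad4 in 13 and Smad7 in 17. Smad3, Ep300, Skil, Smurf2 and Ppm1a passed in 20, and their exceptions were the fits that addressed Xist. None of the genes named in this paragraph passed with log2 Xist as a covariate. With single lungs left out the limma adjusted p was 0.033 to 0.097 for Smad2, 0.023 to 0.080 for Tgif2 and 0.024 to 0.067 for Smad4. That of Smad7 was over the threshold without sham lung 1, 2 or 5, at most 0.052.

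Of 18 TGF-beta target genes 9 rose and 3 fell, with a median of 0.28. Tnc, tenascin C, rose from 22.5 ± 7.70 to 97.7 ± 10.5 FPKM (SD, n = 5 each, log2 fold change 2.19, limma adjusted p = 5.5e-05), and Tgfbi, a TGF-beta-induced matrix protein, rose from 62.6 ± 25.4 to 232 ± 21.6 FPKM (log2 fold change 1.97, limma adjusted p = 0.00011). Cdkn1a and Cdkn2b, cell cycle inhibitors that TGF-beta is known to induce, fell by 0.95 and 0.76 on the log2 scale. The target list thus moved in both directions, and most of its genes also answer to other signals. With log2 Xist as a covariate 7 of the pathway genes passed, beside 4.82% of all genes tested. They were Thbs1, Fbn2, Adamtsl2, Htra1, Tnc, Tgfbi and Cdkn2b. Cdkn1a and the other pathway genes named here did not pass in that fit.

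**Figure D5:**
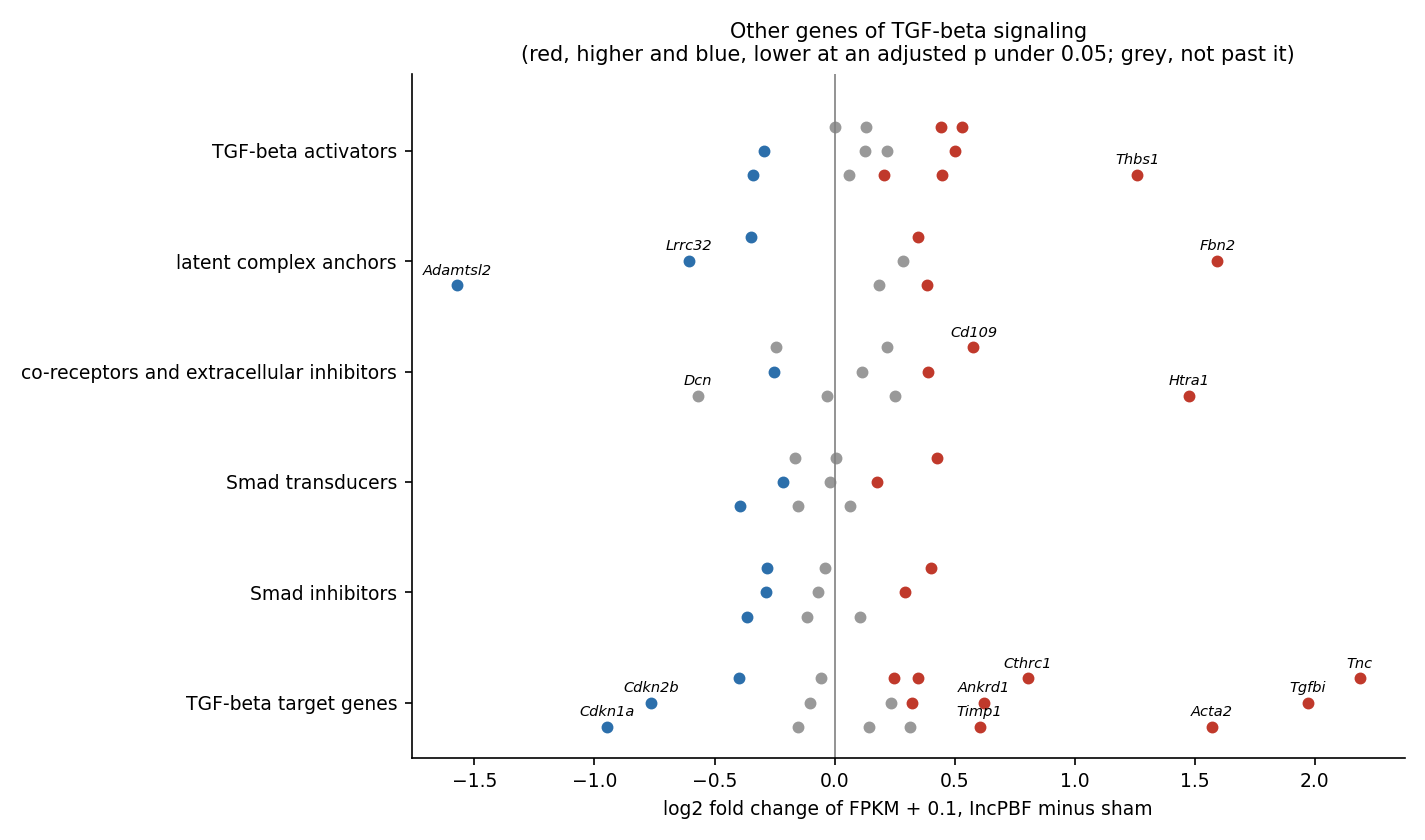
Log2 fold change, IncPBF against sham (horizontal axis), of the genes of the 6 pathway lists, 1 band of points per list with no meaning to the height within a band, red and blue for genes that passed the limma test as higher and lower and grey for the rest. Thbs1, Fbn2, Htra1, Acta2, Tgfbi and Tnc lie furthest to the right at 1.26, 1.59, 1.48, 1.57, 1.97 and 2.19, and Adamtsl2 furthest to the left at -1.57.

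Cell type markers are given as counts that passed, to be read beside the 16.1% of all genes that were higher and the 16.2% that were lower. In bulk tissue fewer cells of a type and less RNA per cell cannot be told apart. Alveolar epithelial markers identify the tissue as lung, with sums of 10883 to 13339 FPKM in IncPBF and 13016 to 16099 FPKM in sham, and 6 of 8 fell. Of 8 smooth muscle markers 5 rose and none fell, and their summed level was 319 to 616 FPKM in IncPBF against 117 to 252.3 FPKM in sham. Of 9 mesenchymal markers 2 rose and 2 fell, which is near those shares, and the sums overlapped at 1152 to 1339 and 1124 to 1361 FPKM. Of 5 mesothelial markers tested 4 fell (116 to 137 against 143 to 196 FPKM), as did 4 of 8 endothelial markers, of which 1 rose (1080 to 1162 against 1116 to 1425 FPKM), and 4 of 6 erythroid markers (252.2 to 1929 against 1463 to 2447 FPKM). Of 8 macrophage markers 2 fell (67.3 to 87.2 against 77.1 to 111 FPKM), and of the cartilage markers the 1 tested, Sox9, rose (list sums of 1.06 to 2.01 against 0.738 to 1.24 FPKM). The other 5 cartilage markers were under the filter, each with a lower mean in IncPBF than in sham.

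None of the 6 ciliated cell, 8 lymphocyte, 5 platelet and 5 cardiac muscle markers tested passed in the limma test, and the summed levels of these lists overlapped. Ciliated cell markers summed to 121 to 173 FPKM in IncPBF and 106 to 178 FPKM in sham, and cardiac markers to 32.4 to 98.0 and 7.53 to 46.2 FPKM. Lymphocyte markers summed to 20.1 to 24.6 FPKM in IncPBF and 23.4 to 28.7 FPKM in sham, and platelet markers to 25.4 to 37.6 and 24.2 to 50.4 FPKM. No marker was at 0 in all 10 lungs. The lists share Acta2, Tagln, Col1a1, Col1a2 and Col3a1 with the target list, Fn1 with the anchors, Itgb3 with the activators and Dcn with the extracellular inhibitors. The part of these cell types in the changes of the members was not tested.

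The genes whose levels followed those of the members most closely over the 10 lungs were sought among 13534 genes with a mean of at least 1 FPKM. The points share libraries and fall into groups of 5, so a gene that separates the groups as a member does gains a high correlation, and no p is given. Tgfb2 was followed most closely by Rcan1 (Pearson r = 0.997), Wisp1 (0.996) and Zfpm2 (0.992). Tgfb3 was followed by Efs, Wnt5a and Prss35 at 0.993 each, of which Wnt5a, a secreted Wnt ligand, was at 14.4 FPKM in sham and 34.3 FPKM in IncPBF. Tgfbr3 went with Jade2 (0.998), Pdgfra (0.995) and Foxo1 (0.994), and Pdgfra, the PDGF receptor of alveolar myofibroblast and lipofibroblast precursors, was at 58.1 FPKM in sham and 22.4 FPKM in IncPBF. Ltbp2 went with Prag1, Samd14 (both 0.987) and Enc1 (0.985). Ltbp4 went with Tcn2 (0.993), Tecpr1 (0.992) and 6430548M08Rik (0.991), Tgfbr2 with Aqp1 (0.989), Rab5b and Ppm1f (both 0.986), and Tgfbr1 with Scaf11, Tfcp2l1 (both 0.974) and 9330182L06Rik (0.973). Aqp1, the water channel of lung capillaries, fell from 475 to 346 FPKM in the mean.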

How the data were processed

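Lungs of 5 IncPBF and 5 sham mice were analysed. The authors deposited FPKM per gene, made from NEBNext libraries sequenced on a NovaSeq instrument. The submitters' processing notes name Bowtie 0.12.2 and the builds GRCm38, mm10 and hg38, and the counting software is not given in the sources used here. Positions of 10 of 10 members equalled GENCODE M21 on GRCm38. FPKM times gene length gave whole fragments for 100% of values. The tolerance was 0.01 fragments at low counts and grew in proportion to the count at high counts, where the check is therefore weak. The IncPBF columns are headed vo where the titles have ipf, and were matched by their numbers because the series describes its operated lungs as volume overload.

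FPKM were tested as log2(FPKM + 0.1) with limma 3.58.1 (lmFit, eBayes with trend, R 4.3.3) in genes with a mean of at least 0.5 FPKM. The fit had no covariates, with Benjamini-Hochberg adjustment over all genes. The test was first run on simulated data with far fewer changed genes, balanced in direction, and with scaling by the total of each lung. That simulation therefore does not cover the scaling of the deposited FPKM or the share of genes that passed here. Single shares were compared by exact permutation. Intervals are 95% intervals. Figures and sums were made with Python 3.11.15, pandas 2.3.3, numpy 2.4.6 and matplotlib 3.10.9.

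Members and lists were chosen with earlier results of these data known. Named were the members, in each pathway list the 2 rises and 2 falls with the smallest adjusted p and 10 key genes whatever their values, and for each member that passed the 3 genes of highest correlation. Sox9, D030025P21Rik and Acta2 lie outside this rule and were named after their values were seen. A result that this rule names is not reported here. The lists were activators, anchors, co-receptors and extracellular inhibitors, Smad transducers, Smad inhibitors and target genes, and markers of mesenchymal, smooth muscle, mesothelial, endothelial, alveolar epithelial, ciliated, macrophage, lymphocyte, platelet, cartilage, cardiac and erythroid cells.

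Alternatives were a pseudocount of 1 or 0.01, a mean of at least 1 FPKM or no filter, equal fragment totals per lung, centring on medians, quantile normalization, a replicate block, eBayes without trend, limma-voom on the recovered fragments, log2 Xist as a covariate, the 6 lungs without Xist (under 1 FPKM) and each lung left out.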

Additional observations from a re-analysis of the deposited data

Results flagged for a closer look

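Within-group spread was examined in 40 groups of 5 lungs, the FPKM of each member and its share of the sum of its role. A lung was set apart where its gap to the nearest other lung exceeded 0.71 of the range of the group, which chance alone gives in about 1 in 20 groups, and 4 were found. Tgfb1 was at 20.43 FPKM in IncPBF lung 3 while the other IncPBF lungs were between 17.25 and 17.57 FPKM. Tgfb2 was at 12.14 FPKM in sham lung 1 and at 14.85 to 15.47 FPKM in the other sham lungs. Tgfb3 made up 50.13% of ligand FPKM in IncPBF lung 5 and 48.59% to 48.94% in the others. Ltbp3 made up 23.42% of the LTBP sum in IncPBF lung 3 and 22.43% to 22.67% in the others. With each lung left out in turn the log2 fold change of Tgfb1 was -0.23 to -0.13, of Tgfb2 1.11 to 1.20, of Tgfb3 0.98 to 1.18 and of Ltbp3 0.06 to 0.20.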

How the results depend on the processing

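All 10 members kept their sign in every one of the 22 alternative settings. Tgfb2 passed in all 22, Tgfb3 and Tgfbr3 in 21, and Tgfbr2, Ltbp2 and Ltbp4 in 20. Their exceptions were the fits that addressed Xist. Against 4970 genes, 7 members and 39 pathway genes passing with all lungs, 741 genes, 3 members and 7 pathway genes passed with Xist as a covariate, and 160 genes, 1 member and 3 pathway genes with the 6 lungs without Xist, which also has fewer lungs. There the share of Tgfb3 among the ligands was higher by 9.33 percentage points instead of 9.75 (exact permutation p = 0.167, the smallest that 1 against 5 lungs allow). Leaving out each lung in turn gave 3865 to 5234 genes, 6 to 8 members and 33 to 40 pathway genes. Tgfbr1 ranged from -0.29 to -0.19 (limma adjusted p from 0.026 to 0.10) and Ltbp1 from -0.24 to -0.18 (adjusted p from 0.030 to 0.11) without single lungs, each crossing the threshold, and the cause was not tested.

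Replicate numbers did not pair the lungs. Deviations from the group means of lungs with the same number correlated at 0.00668, 0.0558, -0.0675, 0.00812 and 0.0854, and 2 of 5 IncPBF lungs correlated best with their own number. With the number as a block 4872 genes passed, Tgfbr1 did not (adjusted p = 0.062) and Ltbp1 did (adjusted p = 0.049), in limma. Each member's value rests on 962 or more fragments. Sex, litter and operation day were not tested beyond Xist.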
